A study of Drosophila melanogaster with 3 samples.

Results

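The chemosensory receptor genes of Drosophila melanogaster were examined for binding of the GFP-tagged product of CG17186 in whole embryos. They were the protein-coding genes whose symbol is Or, Gr or Ir followed by a digit, which gave 179 genes among 13945 coding genes on the 6 main arms. Of these, 59 were odorant receptor (Or) genes, 60 gustatory receptor (Gr) genes and 60 ionotropic receptor (Ir) genes. They lay on every arm except 4, with 46 on 2R, 42 on 3R, 35 on 3L, 31 on 2L and 25 on X. All 179 were searched, and no gene was dropped for low values.

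Odorant receptors form ion channels with the co-receptor Orco in olfactory neurons and detect volatile compounds. Gustatory receptors detect sugars, bitter compounds and, for a pair of them, carbon dioxide. Ionotropic receptors are relatives of the ionotropic glutamate receptors and serve smell, taste, temperature and humidity sensing, mostly together with a co-receptor. Those studied are mostly known from small sets of sensory neurons in the antenna, maxillary palp, proboscis, legs and larval head organs, so few cells of an embryo are known to use them.

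Chromatin immunoprecipitation followed by sequencing was performed on 3 biological replicates of mixed sex embryos collected at 0 to 14 hours, all in 1 group. All carried the same stable transgene, CG17186 with GFP at its C-terminus, and the immunoprecipitation used an anti-GFP antibody, per the samples' descriptions; the label field for the antibody gives CG17186 instead. Its promoter was not named there, and a matching control, given only as a possible one, was not analysed here. Each replicate had its own relaxed peak list, the replicates together had a pooled list, and a thresholded set was made from both with the irreproducible discovery rate procedure. That last list is called the reproducible set. In whole embryos, binding in a few cells and weak binding in all cells cannot be told apart.

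A gene was counted as bound when the summit of a peak lay within 500 bp of any of its annotated transcription start sites (TSSs). By that count, 3 of the 179 receptor genes were bound in the reproducible set, against 3902 of the 13766 other coding genes. The 3 were Ir60e, Gr63a and Gr97a. Each of them stands head to head with a gene that is not a receptor gene, and in each case the summit lay closer to that neighbour's TSS. No Or gene was bound. The intervening sequence of the Gr63a pair is shown whole because it holds the summit and both starts. The bases around 4 further summits are shown because the results below refer to them. They are from the plus strand of the RefSeq copy of dm6, 5′ to 3′, and capitals mark words searched for below. The stretch from the first base of Gr63a past the start of Lamtor4 is chr3L:3896603-3896902. The summit windows are chr3R:26966895-26966995 for Gr97a, chr3R:14108691-14108791 for Or88a, chr3L:10434344-10434444 for Ir67c and chr2L:21296436-21296536 for Gr39a.
Gr63a to Lamtor4: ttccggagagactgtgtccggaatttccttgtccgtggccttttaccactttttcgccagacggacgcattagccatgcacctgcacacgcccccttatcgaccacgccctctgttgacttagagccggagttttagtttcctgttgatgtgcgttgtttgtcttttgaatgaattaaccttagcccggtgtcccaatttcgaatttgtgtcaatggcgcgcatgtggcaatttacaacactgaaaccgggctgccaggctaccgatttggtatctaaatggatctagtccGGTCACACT
Gr97a reproducible summit: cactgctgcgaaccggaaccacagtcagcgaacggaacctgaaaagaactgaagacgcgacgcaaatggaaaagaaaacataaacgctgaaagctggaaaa
Or88a reproducible summit: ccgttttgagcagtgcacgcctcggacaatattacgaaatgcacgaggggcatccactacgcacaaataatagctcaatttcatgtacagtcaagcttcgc
Ir67c pooled summit: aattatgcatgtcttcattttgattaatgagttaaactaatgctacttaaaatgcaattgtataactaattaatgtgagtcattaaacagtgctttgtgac
Gr39a pooled summit: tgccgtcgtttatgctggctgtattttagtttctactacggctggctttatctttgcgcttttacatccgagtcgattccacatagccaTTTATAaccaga

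The reproducible set held 3814 peaks, and 28% of all coding genes had one of their summits within 500 bp of a TSS. Among receptor genes the share was 1.68% (exact Clopper-Pearson 95% interval 0.347 to 4.82%), against 28.3% (27.6 to 29.1%) of the other coding genes. Bound Or genes numbered 0 of 59, which allows a share of up to 6.06%. Bound Gr genes numbered 2 of 60 (3.33%, 0.406 to 11.5%) and bound Ir genes 1 of 60 (1.67%, 0.0422 to 8.94%). The intervals of the 3 families overlapped each other, and all lay below that of the other genes. They cover the number of genes only. No read counts were used here, so the sequencing depth is unknown.

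In the longer lists more receptor genes were reached. The pooled list held 23428 peaks and reached 55.2% of all coding genes; 21 receptor genes (11.7%, 7.41 to 17.4%) had a summit there, against 55.7% of the other coding genes. Replicate 1 reached 57.6% of all coding genes, and 19 receptor genes (10.6%, 6.51 to 16.1%). Replicate 2 reached 51.9% of all coding genes, and 35 receptor genes (19.6%, 14 to 26.1%). Replicate 3 reached 57.3% of all coding genes, and 23 receptor genes (12.8%, 8.32 to 18.7%). Replicate 2 had the shortest list, 26139 peaks against 30000 in each of the others, and the most receptor genes.

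The families kept 1 order in all 4 relaxed lists, with Ir genes reached most often and Or genes least. In the pooled list, 12 Ir genes (20%, 10.8 to 32.3%), 7 Gr genes (11.7%, 4.82 to 22.6%) and 2 Or genes (3.39%, 0.413 to 11.7%) had a summit. Those intervals overlap. The replicate lists contribute to the pooled list, so the lists are not independent of each other.

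**Figure D1:**
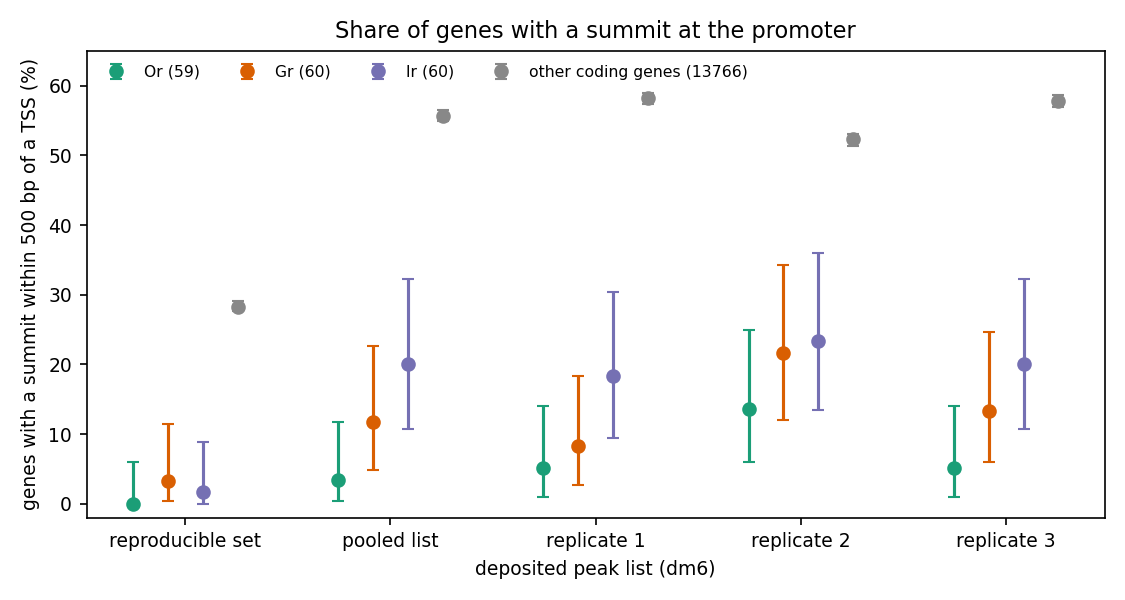
Percentage of genes with a summit within 500 bp of a TSS in each deposited peak list, for Or, Gr and Ir genes and, in grey, all other coding genes. Points are shares and bars exact 95% intervals over genes; every family lies below the other genes in every list, for example 0%, 3.33% and 1.67% against 28.3% in the reproducible set.

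For a comparison over replicates, the 3814 strongest peaks of each replicate list were taken, as many as the reproducible set holds. In replicate 1 these reached 1.68% of receptor genes and 27.9% of other coding genes, a difference of -26.2 percentage points. In replicate 2 they reached 1.68% of receptor genes and 27.3% of others, a difference of -25.6 points. In replicate 3 they reached 1.12% of receptor genes and 26.9% of others, a difference of -25.8 points. Receptor genes were thus lower in 3 of 3 replicates, by -25.9 ± 0.289 points (SD, n = 3), and the spread between replicates was small beside the difference. The exact sign-flip permutation test (two-sided) gave p = 0.25, the smallest it can give with 3 replicates. Gr63a and Ir60e were reached in all 3 replicates, Ir67c only in replicate 1 and Gr97a only in replicate 2.

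Ir60e, an ionotropic receptor gene (2R, 24529554 to 24531272, minus strand), had the strongest peak of the family. The peak spanned chr2R:24531348-24531757 and its summit, at 24531553, lay 281 bp upstream of the Ir60e TSS. The deposited signal of the peak was 220.3, and 28.8% of the reproducible peaks ranked above it. In the replicate lists its signal was 83.88 in replicate 1, 61.63 in replicate 2 and 75.97 in replicate 3. To compare replicates, signals were expressed relative to the median, in the same replicate, of the 3758 reproducible peaks found in all 3. The relative signal was 1.29, 1.25 and 1.16, or 1.23 ± 0.0686 (SD, n = 3), above the median in every replicate. The neighbour CG13585 (24531594 to 24533391, plus strand) starts 322 bp from Ir60e, and the summit lay 41 bp upstream of its TSS.

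Gr63a, on 3L at 3894999 to 3896603 on the minus strand, encodes a subunit of the carbon dioxide receptor. Its peak spanned chr3L:3896624-3897033, with the summit at 3896829, which is 226 bp upstream of Gr63a. The deposited signal was 156.2 in the reproducible set and 55.16, 41.27 and 44.28 in replicates 1, 2 and 3. Relative to the shared peaks this was 0.851, 0.835 and 0.675, or 0.787 ± 0.0971 (SD, n = 3), below the median in every replicate. The neighbour is Lamtor4 (3896900 to 3897498, plus strand), a subunit of the lysosomal Ragulator scaffold. Its TSS lies 297 bp from that of Gr63a and 71 bp from the summit. The carbon dioxide receptor needs Gr21a as well, and the nearest reproducible summit to Gr21a was 38518 bp away.

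Gr97a, a gustatory receptor gene (3R, 26965124 to 26966485, minus strand), had the weakest of the 3 peaks, at chr3R:26966740-26967149. Its summit, at 26966945, lay 460 bp upstream of Gr97a and 15 bp inside the neighbour CG5521 (26966930 to 26977878, plus strand). The deposited signal was 148.3, and 39.75, 36.52 and 51.96 in replicates 1, 2 and 3. The relative signal was 0.613, 0.739 and 0.793, or 0.715 ± 0.0922 (SD, n = 3), below the median in each. In replicate 3 the overlapping peak had its summit 120 bp from the reproducible one, outside the 500 bp window of Gr97a.

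All 3 summits lay over 200 bp from the receptor TSS. The other 3902 bound genes had a median distance of 82.5 bp between TSS and summit, and 19.7% lay over 200 bp away. When each summit was given only to the gene with the nearest TSS, 0 receptor genes were bound, against 2811 other coding genes (20.4%).

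**Figure D2:**
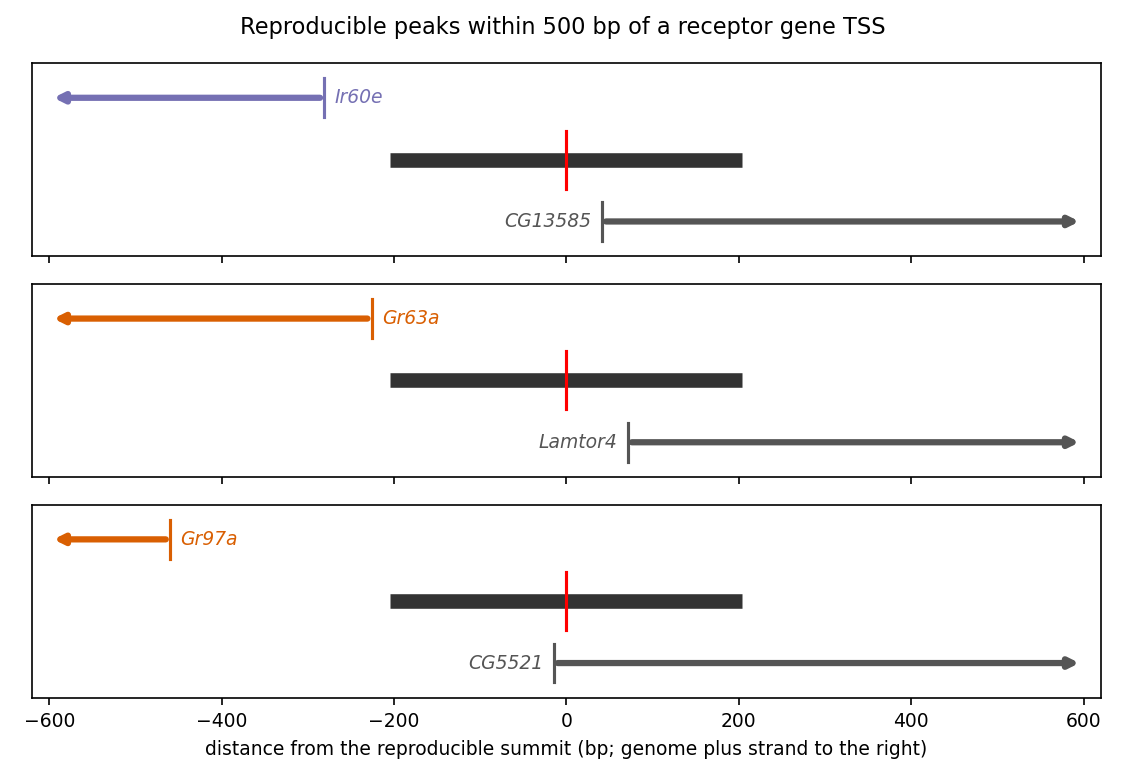
The 3 reproducible peaks at receptor genes, drawn to scale around the summit in bp. Black bars are peaks, red lines summits, and arrows run from each TSS in the direction of transcription, cut at the panel edge; in each panel the summit is nearer to the neighbour (CG13585 at 41 bp, Lamtor4 at 71 bp, CG5521 at 15 bp) than to the receptor gene (281, 226 and 460 bp).

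**Figure D3:**
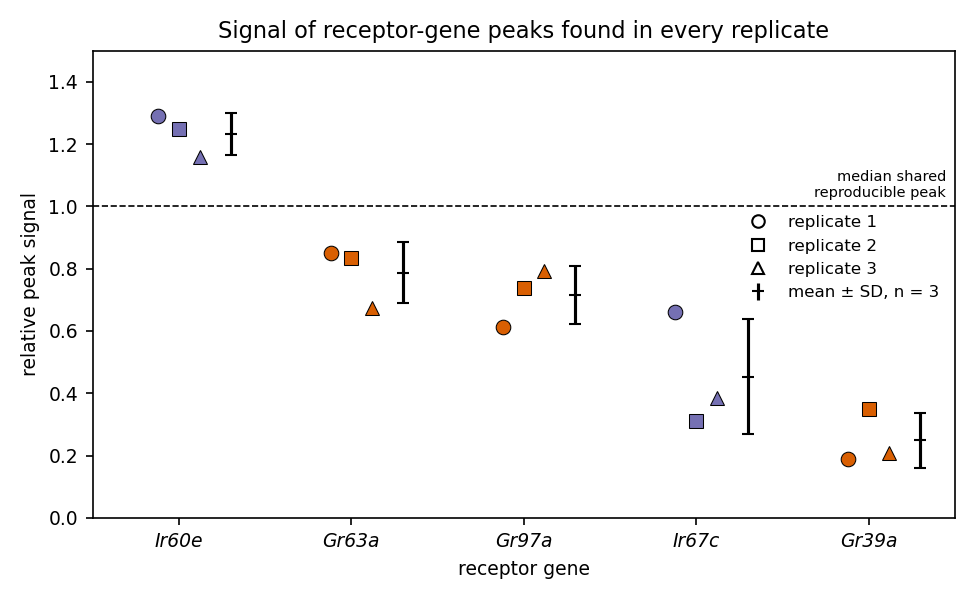
Relative signal of the peaks that overlap in every replicate, for the 3 receptor genes of the reproducible set and for Ir67c and Gr39a from the pooled list. Symbols are replicates, bars the mean ± SD (n = 3), and the dashed line the median shared reproducible peak; all 3 values of Ir60e lie above 1 and those of the other 4 genes below it.

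Neighbours were then counted for all receptor genes. A coding gene that is not a receptor gene had its TSS within 1000 bp of 23 receptor genes (12.8%), against 5930 other coding genes (43.1%). Of the 23 receptor genes with such a neighbour, 3 were bound (13%, 2.78 to 33.6%), against 46.8% of the other coding genes with one. Of the 156 without a neighbour, 0 were bound, which allows up to 2.34%, against 14.4% of the other coding genes without one. Over all genes, receptor genes had the lower share both with and without a neighbour. Among genes whose first TSS is the first base of a start codon, 2 of 14 receptor genes with a neighbour were bound (14.3%), against 8 of 111 others (7.21%), the opposite order. Without a neighbour, 0 of 118 such receptor genes were bound, against 3 of 272 others (1.1%). In the pooled list the shares were 28.6% and 25.2% with a neighbour, and 7.63% and 11.8% without. These differences rest on few genes and were not tested.

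The 23 receptor genes had 24 such neighbours, and for 21 of them the neighbour ran on the opposite strand. Of the 24 neighbours, 5 were bound: CG13585, Lamtor4, CG5521, the tumour suppressor gene p53 and CG43659. CG13585, Lamtor4 and CG5521 are the neighbours of the bound receptor genes. The shares were higher among all coding genes (28%) and among other coding genes with any coding TSS within 1000 bp (46.7%). The latter group includes these neighbours. The comparison rests on few genes and was not tested. A start of p53 lies 459 bp from Gr94a, and CG43659 starts 846 bp from Gr59a. Those receptor genes were not bound. The nearest reproducible summit to Gr94a was 2418 bp away, so p53 was counted through another of its starts, not the one beside Gr94a. Among close pairs with neither gene bound were Ir76a and CG14102 (39 bp apart), Gr61a, a sugar receptor gene, and JMJD5 (91 bp), and Or49b and Cyp9h1 (107 bp). In most of the pairs neither start had a reproducible summit within 500 bp.

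Away from their promoters, receptor genes also lay far from the reproducible summits. The median distance from a receptor TSS to the nearest summit was 20.5 kb (quartiles 7.23 and 49.8 kb), against 5.51 kb (0.251 and 20.2 kb) for other coding genes. Or genes had the longest median, 36 kb, with Gr genes at 16.1 kb and Ir genes at 16.5 kb. Within 1 kb lay 4 receptor genes (2.23%), against 30.8% of other coding genes, and beyond 10 kb lay 127 (70.9%), against 38.8%. The farthest gene of each family was Ir41a at 840141 bp, Or35a at 124506 bp and Gr92a at 84928 bp. No receptor gene body held a reproducible summit (0 of 179), against 1481 other coding genes (10.8%). Receptor genes are short, with a median length of 1.69 kb, against 2.18 kb.

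The Or gene nearest to a reproducible summit was Or88a (3R), a receptor for fly odours, with a summit 704 bp upstream of its TSS. That peak had a signal of 167.1 and lay 420 bp upstream of CG12402. Or9a followed at 1014 bp, Or46a at 1520 bp and Or85f at 1870 bp. In the other families the nearest genes that were not bound were Gr59a at 1329 bp, Gr89a at 1391 bp and Ir68b at 2194 bp. In the relaxed lists, Or88a had a summit within 500 bp in replicate 2 (signal 28.02) and replicate 3 (16.31), but not in replicate 1. These summits lay on opposite sides of its TSS, at -489 bp in replicate 2 and 241 bp in replicate 3. Whether the replicate 2 summit belongs to the peak beside CG12402 was not tested.

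**Figure D4:**
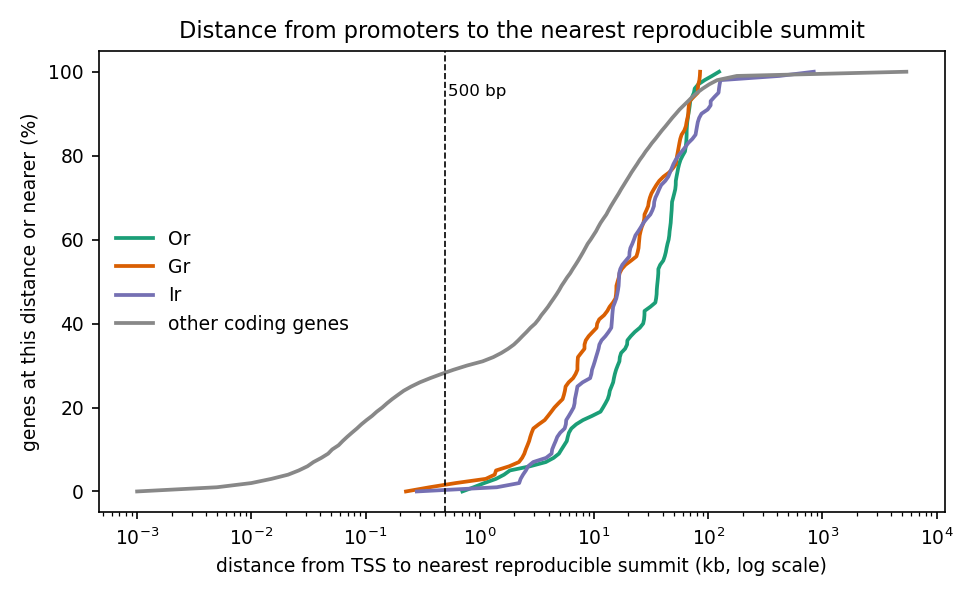
Cumulative percentage of genes by distance from their TSS to the nearest reproducible summit, in kb on a log axis, for Or, Gr and Ir genes and, in grey, other coding genes. The dashed line is the 500 bp window; 2.23% of receptor genes lie within 1 kb, against 30.8% of other coding genes, and the medians are 36, 16.1 and 16.5 kb, against 5.51 kb.

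Below the reproducible set, the pooled list held summits at 18 more receptor genes. Of the 21 receptor genes with a pooled summit, 14.3% were in the reproducible set, against 50.9% of the other coding genes with one. The pooled peaks at receptor genes had a median signal of 40.85 and a median rank of 15257, against 111.3 and 3724 at other coding genes. Their summits lay a median of 289 bp from the TSS, against 97 bp. Summits within 100 bp of the TSS were found for 5 of the 21 (23.8%), against 51.2% of the others.

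Of these 18, Ir67c (3L, 10432384 to 10434105, minus strand) had the strongest pooled peak (88.2), centred on a summit 289 bp upstream. No other coding gene had a TSS within 500 bp of that summit. In the replicate lists its signal was 42.92, 15.4 and 25.24, at ranks 3724, 14557 and 9568, and the relative signal was 0.453 ± 0.185 (SD, n = 3). The value of replicate 1 stood well above the other two. The Ir67c summit window has a GC content of 26.7%, against 47.5% for those of Gr97a and Or88a. It was 49.5% for the Gr63a summit window and 42.6% for the pooled one of Gr39a. The GC content over all summits is not given.

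Gr39a (2L, 21290734 to 21297686, plus strand), which encodes several bitter receptor isoforms from alternative starts, was also in all 3 replicate lists. Its peaks were weak, with signals of 13.92, 17.37 and 13.67 at ranks 21183, 11104 and 28069. The pooled peak, with a signal of 40.6, had its summit 172 bp downstream of one of the 4 annotated starts. The replicate 1 peak of 13.92 did not overlap the pooled peak. The replicate 1 peak that did had a signal of 12.31 at rank 25625.

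Among the remaining pooled peaks, Ir60b (53.82) had the mitochondrial protein gene Letm1 106 bp away from the summit, and Gr5a (52.47), a trehalose receptor gene, had Tre1 at 298 bp. Ir85a (50.09) and Gr93a (48.75), a bitter receptor gene, had summits 74 and 83 bp inside the gene. Or genes with a pooled summit were Or83a (39.21) and Or23a (35.37). The weakest was Ir48b, with a signal of 33.33 and its summit 497 bp upstream.

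The replicates shared few of their receptor genes. A summit was present in at least 1 replicate list for 53 receptor genes, in all 3 for 4 of these (7.55%), and in only 1 for 33 (62.3%). Among other coding genes, 9607 had a summit in at least 1 list, 61.5% of them in all 3 and 20.4% in only 1. The 4 were Ir60e, Gr63a, Ir67c and Gr39a. Replicate 2 alone held 20 of the 33, replicate 3 held 8 and replicate 1 held 5, whereas other coding genes found in 1 list were spread as 596, 695 and 668 over the same replicates. By family, 25 Ir, 17 Gr and 11 Or genes were in at least 1 list.

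Peaks were also split by rank, and since the bands hold between 3814 and 10000 peaks, shares are given per 1000 peaks. In replicate 1, peaks ranked 1 to 3814 reached 0.439% of receptor genes and 7.3% of other coding genes per 1000 peaks, and peaks ranked 20001 to 30000 reached 0.503% and 1.16%. In replicate 2, peaks ranked 1 to 3814 reached 0.439% and 7.15%, and those ranked 20001 to 26139 reached 0.819% and 1.08%. In replicate 3, peaks ranked 1 to 3814 reached 0.293% and 7.06%, and those ranked 20001 to 30000 reached 0.559% and 1.24%. The share of other coding genes was lower among weaker peaks in each replicate, and the gap to receptor genes was narrower there. The band of replicate 2 from 10001 to 20000 reached 21 receptor genes, or 1.17%, against 1.36% of the others. Every other band reached between 2 and 10 receptor genes, and differences between bands were not tested.

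**Figure D5:**
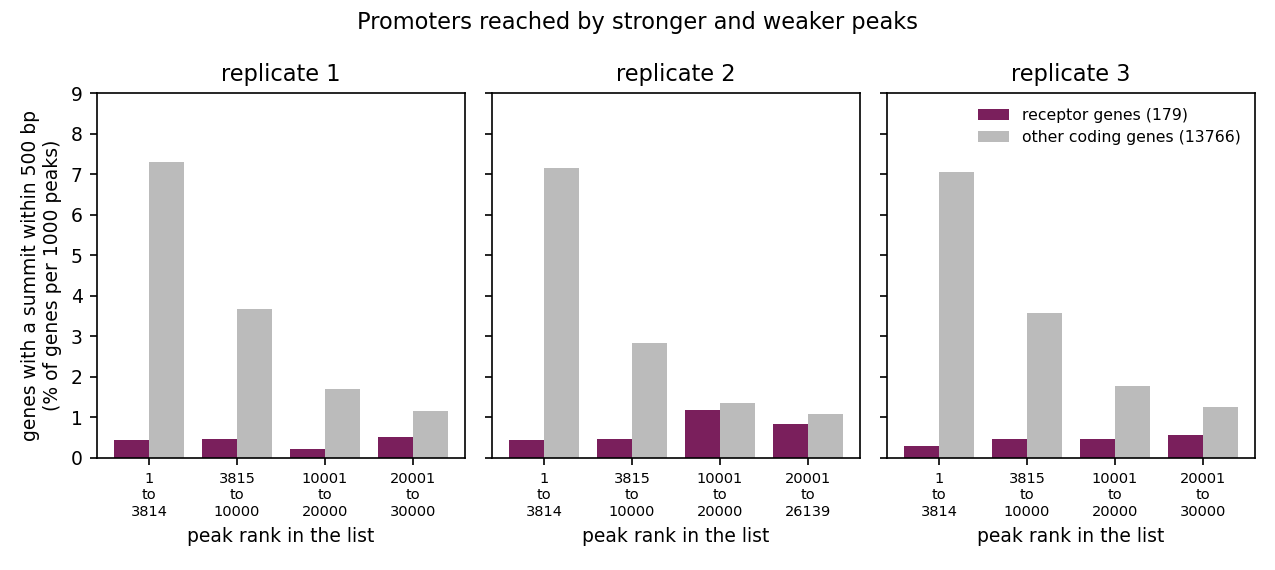
Percentage of genes with a summit within 500 bp of a TSS from peaks of each rank band, per 1000 peaks of the band, by replicate, for receptor genes and, in grey, other coding genes. Grey bars are lower among weaker peaks in every replicate, at 7.3, 7.15 and 7.06% in the first band and 1.16, 1.08 and 1.24% in the last, while those of receptor genes lie between 0.223 and 1.17%.

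By known role, pooled summits are set beside the 55.2% of all coding genes with one; the lists are short and no list was tested. Of the 3 ionotropic co-receptor genes, Ir25a (signal 40.85) and Ir76b (42.52) had pooled summits (66.7%) and Ir8a had none. Ir25a and Ir76b each had a summit in only 1 replicate list. Of 5 temperature and humidity receptor genes, which are Ir21a, Ir40a, Ir68a, Ir93a and Gr28b, Ir93a had one (38.68), or 20%. Of 9 sugar receptor genes, Gr5a, Gr64a (36.78) and Gr64c (34.38) had one (33.3%). Of 6 bitter receptor genes, Gr39a and Gr93a had one (33.3%). None of the 4 pheromone receptor genes Or67d, Or47b, Or88a and Or65a had a pooled or reproducible summit within 500 bp. In the reproducible set these lists held 0 bound genes, and the pair of carbon dioxide receptor genes held 1, Gr63a.

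Genes that work with the receptors were counted the same way. Orco, the odorant co-receptor, Snmp1, a membrane protein of pheromone detection, Snmp2, and lush, a pheromone-binding protein, had neither reproducible nor pooled summits. The nearest reproducible summit to Orco was 16555 bp away. Of 51 odorant-binding protein genes, 1 was bound in the reproducible set (1.96%), Obp99b with a signal of 283 and its summit 260 bp upstream. Of 29 pickpocket sodium channel genes, 1 was bound (3.45%), ppk29 with a signal of 127.3. None of the 20 CheA and CheB genes was bound. Each of these 3 larger lists was below the 28% over all coding genes.

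None of the 13 ionotropic glutamate receptor genes, the relatives of the Ir family, was bound, and Ekar (34.84) and GluRIIA (34.58) had weak pooled summits (15.4%). None of the 19 transcription factor genes of chemosensory organs and neurons was bound in the reproducible set, and 7 had pooled summits (36.8%), against the 28% and 55.2% of all coding genes in these lists. The strongest was at ap, which encodes a LIM homeodomain protein (106.3, in all 3 replicate lists). It was followed by en (69.23) and pdm3 (66.73), which encode homeodomain and POU domain proteins. The others were dac, sens, ss and Eip93F.

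Receptor gene models differ from those of other coding genes in the start sites from which the window was set. Of the 179, 167 have 1 annotated TSS (93.3%), against 73.2% of other coding genes. For 132 receptor genes (73.7%) the first TSS is the first base of a start codon, so that no 5′ UTR is annotated, against 383 other coding genes (2.78%). Among genes annotated that way, 2 of 132 receptor genes were bound (1.52%), against 11 of 383 others (2.87%). In the pooled list the shares were 9.85% and 15.7%. Among genes with 1 TSS, 3 of 167 receptor genes (1.8%) and 2402 of 10079 others (23.8%) were bound. Genes without an annotated 5′ UTR were thus rarely bound in the reproducible set, whether or not they encode receptors. They make up little of the other coding genes, of which 3902 of 13766 were bound (28.3%). Only 11 of those 3902 lacked an annotated 5′ UTR, as did 2 of the 3 bound receptor genes. Shares among genes with an annotated 5′ UTR are not given. These splits were chosen after the values were seen, and their part in the result was not tested.

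Many receptor genes also stand close together. With gaps of at most 5000 bp, on either strand and in any of the families, 79 lay in 28 arrays and 100 stood alone. The largest array held the 6 sugar receptor genes Gr64a to Gr64f (3L, 4026769 to 4037575). None of the 3 bound genes was in an array, which is too few to compare the 79 genes in arrays with the 100 alone. Genes of an array are neighbours, so the intervals given above, which treat genes as independent, may be too narrow.

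The sequence words of known promoter and insulator factors were searched on both strands in the 300 bases from 250 before to 50 after the first TSS. TATCGATA, the word of DREF, was in 1 receptor promoter (0.559%), against 9.48% of other coding promoters. GGTCACACT, the word of M1BP, was in 0 receptor promoters, against 6.12%. Core promoter motif 7, searched as CANCNCTA, was in 12 (6.7%), against 15.7%, and the E-box CAGCTG was in 17 (9.5%), against 17.8%. CATCGATA, a BEAF-32 word, was in 3 (1.68%), against 4.26%, and CAGGGCTG, a ZIPIC word, was in 1 (0.559%), against 2.34%. AACAGCAC, listed beforehand as a word of the strongest peaks of these data, was in 3 (1.68%), against 1.48%. It was within 50 bp of 1.97% of the 3814 reproducible summits, and its link to strong peaks was not examined here. All words but AACAGCAC were less frequent in receptor promoters. The windows were set from the annotated first TSS, a start codon for 73.7% of receptor genes and 2.78% of others. The windows compared may therefore differ in their place relative to the true start. These words were not split by start codon.

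TATAAA, the TATA box word, was in 97 receptor promoters (54.2%), against 45.8% of other coding promoters. The families differed, with 46 of 59 Or promoters (78%), 33 of 60 Ir promoters (55%) and 18 of 60 Gr promoters (30%). Among Or genes whose TSS is a start codon the word was in 74.4%, and among the other Or genes in 87.5%, against 44.9% and 45.8% of other coding genes split the same way. Median GC content of the windows was 39.5% in receptor genes and 37.9% in other coding genes.

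The same words were searched within 50 bp of the reproducible summits. Motif 7 was in that window of the Ir60e peak, and in 9.31% of all 3814. None of the words was within 50 bp of the Gr63a or the Gr97a summit. The Gr63a peak held GGTCACACT at 3896894 to 3896902, which is the end of the sequence printed above; its centre is 69 bp from the summit, and it overlaps the first bases of Lamtor4. That word was within 50 bp of 4.93% of all summits. TATAAA, present as TTTATA in the Gr39a window, was within 50 bp of 13.4% of the reproducible summits. The Ir67c and Or88a windows held none of the words.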

How the data were processed

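The deposited files were narrowPeak lists in dm6. Per the deposited read-me tables, the authors called relaxed lists on each replicate and on the 3 pooled alignments against a control alignment, and thresholded them by irreproducible discovery rate. Which aligner, caller, versions and threshold were used is not given in the sources used here. Column 7 of the lists holds the signal per peak as the authors deposited it, in the caller's own scale; it was used to rank peaks within a list or relative to a replicate's median. The dm3 lists were not used. Summits were set against the Ensembl 115 (FlyBase 6.54) gene models with Python 3.11.15, pandas 2.3.3 and scipy 1.17.1. All 179 receptor genes had the same ends in the RefSeq annotation of dm6. No read counts were used here, so depth is unknown. Named were the bound receptor genes with their neighbours, those in the pooled list and all 3 replicate lists, members of the role lists, and the nearest Or gene; others, such as those farthest from a summit, were chosen after their values were seen. The counting was tested on simulated summits. The receptor genes and role lists were chosen with earlier results of these data known. Alternatives were other windows, TSS choices, stronger peaks and replicates left out.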

Additional observations from a re-analysis of the deposited data

How the results depend on the processing

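Of 78 recomputed values, 48 moved a result by less than its limit, 30 moved it by more and 0 reversed it. The 3 bound receptor genes became 1 in a 250 bp window (Gr63a; 0.559%, against 25% of other coding genes), 0 with each summit given to the nearest TSS (against 20.4%), and 1 among the stronger 50% of peaks (Ir60e; 0.559%, against 15.8%). Or genes went from 0 to 1 (Or88a) in a 1000 bp window or with any overlap of the peak interval. Gr genes, 2 as reported, were 1 in a 250 bp window, 0 by nearest TSS, 0 among the stronger 50% of peaks, and 1 in the strongest peaks of replicate 1 or of replicate 3. Ir genes, 1 as reported, were 0 in a 250 bp window, 0 by nearest TSS and 2 in the strongest peaks of replicate 1. With windows of 250 and 1000 bp and the stronger 50% of peaks, counts were 10, 33 and 8 in the pooled list, 8, 34 and 9 in replicate 1, and 18, 59 and 13 in replicate 2. In replicate 3 they were 11 with 250 bp and 11 with the stronger 50%. The median distance was 4.57 kb to pooled summits. The difference between receptor and other coding genes was -23.3 points at 250 bp and -27.2 at 1000 bp, and -26 to -25.7 with 1 replicate left out. Relative to the median of the whole list, signals were 4.2 at Ir60e, 2.68 at Gr63a and 2.41 at Gr97a. The cause of these shifts was not tested beyond what each rule counts. A pair of alternatives was added after seeing the data. Among genes with 1 TSS, 3 receptor genes were bound (1.8%, against 23.8% of others). Among genes with the first TSS at a start codon, 2 receptor genes were bound (1.52%, against 2.87%). Both of the latter shares rest on few bound genes, and in the pooled list they were 9.85% and 15.7%. Shares among genes with an annotated 5′ UTR are not given here. No paired analysis was possible because there was 1 group of samples; the difference in points is taken within each replicate.

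The limits are the unknown depth and peak calling settings, the few bound genes, which leave wide intervals for each family, and the annotation of receptor starts, most of which lack a 5′ UTR. A summit within 500 bp does not say which gene of a divergent pair the protein acts on.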
